A study of Drosophila melanogaster with 8 samples.

Results

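The epidermal growth factor receptor (EGFR) pathway of *Drosophila* was examined along the larval midgut through 9 genes, taken from the table by symbol: the receptor *Egfr*, the ligands *spitz* (*spi*), *Keren* (*Krn*) and *vein* (*vn*), the ligand protease *rhomboid* (*rho*), the transcription factor *pointed* (*pnt*), and the inhibitors *argos* (*aos*), *sprouty* (*sty*) and *kekkon-1* (*kek1*). All 9 were found among the 14207 named entries of the deposited expression table. RNA was sequenced from 8 midgut subsections, with 1 library each. The anterior midgut gave the libraries M1, M2 and M3–5, the middle midgut M6 and M7–8, and the posterior midgut M9, M10–11 and M12–13; values are listed below in this order, from front to back, unless stated otherwise. All libraries came from feeding larvae of the third instar that carried *GAL4* under the *Cyp4d2* promoter together with UAS-*GFP*.nls, in a background labelled w1118, raised without added xenobiotics. The GFP served to guide the dissection, and tissue from many larvae was pooled in each library. No subsection was sampled again, so no difference between subsections was tested, and the values below carry no error over larvae.

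*Egfr* encodes the single EGF receptor of the fly. *spi* and *Krn* encode membrane-bound ligands that rhomboid proteases cleave, whereas *vn* encodes a secreted, neuregulin-like ligand. The activated receptor signals through Ras and the MAP kinase cascade to *pnt*, an ETS-domain activator that competes with the repressor *anterior open* (*aop*, also called Yan). The pathway restrains itself: *aos* encodes a secreted protein that sequesters Spi, *sty* an intracellular inhibitor of receptor tyrosine kinase signaling, and *kek1* a transmembrane protein that binds the receptor. In the larval midgut the pathway is known to drive proliferation of the progenitors of the adult midgut, with *vn* made by visceral muscle and *spi* and *Krn* made by the progenitors themselves. In bulk RNA, fewer cells of a type and less RNA per cell cannot be told apart.

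Expression is given as FPKM, the fragments per kilobase of exon and per 1000000 fragments mapped, so that levels can be compared between genes. The deposited 95% interval of each value started at 0 in all 72 cases (9 genes in 8 libraries), so that the intervals of a gene overlap between all libraries; the upper bound in the lowest library is given below as a guide. Differences are on the scale of log2(FPKM + 1), which understates the change of genes with low values. The expression limit of the study (FPKM above 5 in any subsection or a mean above 3) was met by 6315 entries, which serve as the background, and by 5 of the 9 genes: *spi*, *Krn*, *pnt*, *Egfr* and *sty*. Each of the 5 had a mean above 3 FPKM, and *vn*, *rho*, *aos* and *kek1* remained below 1 FPKM in every library.

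The libraries differed in ways that touch every result here. The summed FPKM was between 542365 in M12–13 and 1806163 in M2, and the median of the genes that met the limit was 9.40 FPKM in M6 and between 13.7 and 14.8 FPKM elsewhere. M6 was sequenced less deeply than the other subsections and its RNA was more prone to degradation, according to the study's methods. Markers of the midgut were present: *Myo31DF*, an enterocyte myosin, had at least 89.6 FPKM in every library, and *labial* (*lab*), the copper cell homeobox gene, had 32.9 FPKM in M6 and at most 5.40 FPKM in any other library. The rest of the list of 4 enterocyte markers was regional. *GATAe* had between 18.2 FPKM (M6) and 40.5 FPKM (M9), and *nub* between 7.11 FPKM (M6) and 40.6 FPKM (M10–11). *betaTry* had 15857 FPKM in M2 and 0.712 FPKM in M10–11. None of the 4 hemocyte, 4 neuronal or 2 Malpighian tubule markers met the expression limit, and the 3 fat body markers summed to at most 11.1 FPKM. The 5 tracheal markers summed to between 1.97 and 2.70 FPKM in the anterior, 3.38 and 6.56 FPKM in the middle and 4.71 and 9.54 FPKM in the posterior libraries, and 1 of them, *Gasp*, met the limit (6.42 FPKM in M12–13). The tracheal markers were thus lowest where *pnt* and *sty* were lowest. The parts of trachea and fat body in the levels below were not tested.

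The ligands *spi* and *Krn* had the highest levels among the 9 genes and were expressed along the whole midgut. *spi* (FBgn0005672; chromosome 2L, 19567900 to 19577315) had 11.9, 11.5 and 12.4 FPKM in the anterior libraries, 14.4 and 16.2 FPKM in the middle ones and 9.08, 9.17 and 13.4 FPKM in the posterior ones. The highest value was 1.79 times the lowest, and the anterior libraries lay within the range of the posterior ones. The deposited upper bound in M9, the lowest library, was 26.8 FPKM and so above every value of *spi*; neighbors in this order are not separable with these data.

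*Krn* (FBgn0052179; chromosome 3L, 17640542 to 17647380, an interval that also holds *Ndfip*) was highest in a contiguous block of the middle and the foremost posterior midgut. It had 8.68, 7.27 and 8.81 FPKM in front of this block, then 13.8 FPKM in both middle libraries and 14.4 FPKM in M9, and behind it 10.2 FPKM in M10–11 and 7.56 FPKM in M12–13. The anterior libraries and M12–13 were the low ones, and the highest value was 1.99 times the lowest, below the upper bound of 25.7 FPKM in M2. Because both ligands are measured in the same library, their ratio does not depend on how libraries were scaled, a view chosen once the values were known. *Krn* over *spi* was between 0.630 and 0.729 in the anterior libraries, 0.958 and 0.852 in the middle ones and 1.59, 1.11 and 0.564 in the posterior ones. *Krn* exceeded *spi* in M9 and M10–11, and *spi* exceeded *Krn* in the other 6 libraries. In every library the upper bound of the lower of these genes was above the value of the higher one. The order of the ligands within a library is thus not separable with these data, least of all where the ratio was near 1, as in M6 and M10–11.

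The third ligand, *vn* (FBgn0003984; chromosome 3L, 5806438 to 5838764), was present at far lower levels, with a mean of 0.334 FPKM against 12.3 FPKM for *spi* and 10.6 FPKM for *Krn*. It had 0.0680, 0.107 and 0.176 FPKM in the anterior libraries, 0.368 and 0.683 FPKM in the middle ones and 0.249, 0.398 and 0.622 FPKM in the posterior ones. The anterior libraries were all below the others, with peaks in M7–8 and M12–13. The value in M7–8 exceeded the upper bound of 0.271 FPKM in M1. Of 13 markers of visceral muscle, all of which met the limit, 9 were higher in the posterior libraries by their mean on the log2 scale, *Tm1* by 0.05 and *wupA* by 0.07. The share over all genes at any size was not computed. Of the 13 markers, 5 were past 2-fold toward the posterior (background 19.9%), and *Mlp60A* alone was past 2-fold toward the anterior (background 23.8%). With the trend with transcript length removed, as described below, none of the 12 markers with a length was past 2-fold toward the posterior (background 11.3%). *how*, an RNA-binding protein gene, and *bt*, which encodes a giant muscle protein, were picked from the 13 for their likeness to *vn*. All their anterior values were below the others, and M7–8 and M12–13 held the peaks. They had at most 1.04 and 1.41 FPKM in the anterior libraries. Their highest values were in M12–13 (6.27 and 14.7 FPKM) and M7–8 (4.98 and 11.1 FPKM). Other markers differed: *Mlc2* and *Tm2* were highest in M3–5, *Mlp60A* in M2 and *Mef2* in M10–11. *Mhc*, *Prm*, *up* and *Act57B* were lowest in M6. The sum over the 13 markers, in which abundant genes such as *Mlp60A* and *Act57B* weigh most, was highest in M3–5 (2808 FPKM), M12–13 (2579 FPKM) and M2 (2329 FPKM) and lowest in M6 (921 FPKM). The part of muscle in the pattern of *vn* was not tested.

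*Egfr* (FBgn0003731; chromosome 2R, 17409925 to 17447482, with 4 other genes in the interval) was expressed in every subsection and was higher from M7–8 backward. It had 3.70, 2.39 and 2.78 FPKM in the anterior libraries, 3.23 and 6.70 FPKM in the middle ones and 5.81, 5.66 and 5.01 FPKM in the posterior ones. The largest step lay between M6 and M7–8 (0.87 on the log2 scale). Over all genes that met the limit, the median of the same step was 0.44. The posterior mean was 1.86 times the anterior mean. The value in M7–8 exceeded the upper bound of 6.06 FPKM in M2.

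**Figure D1:**
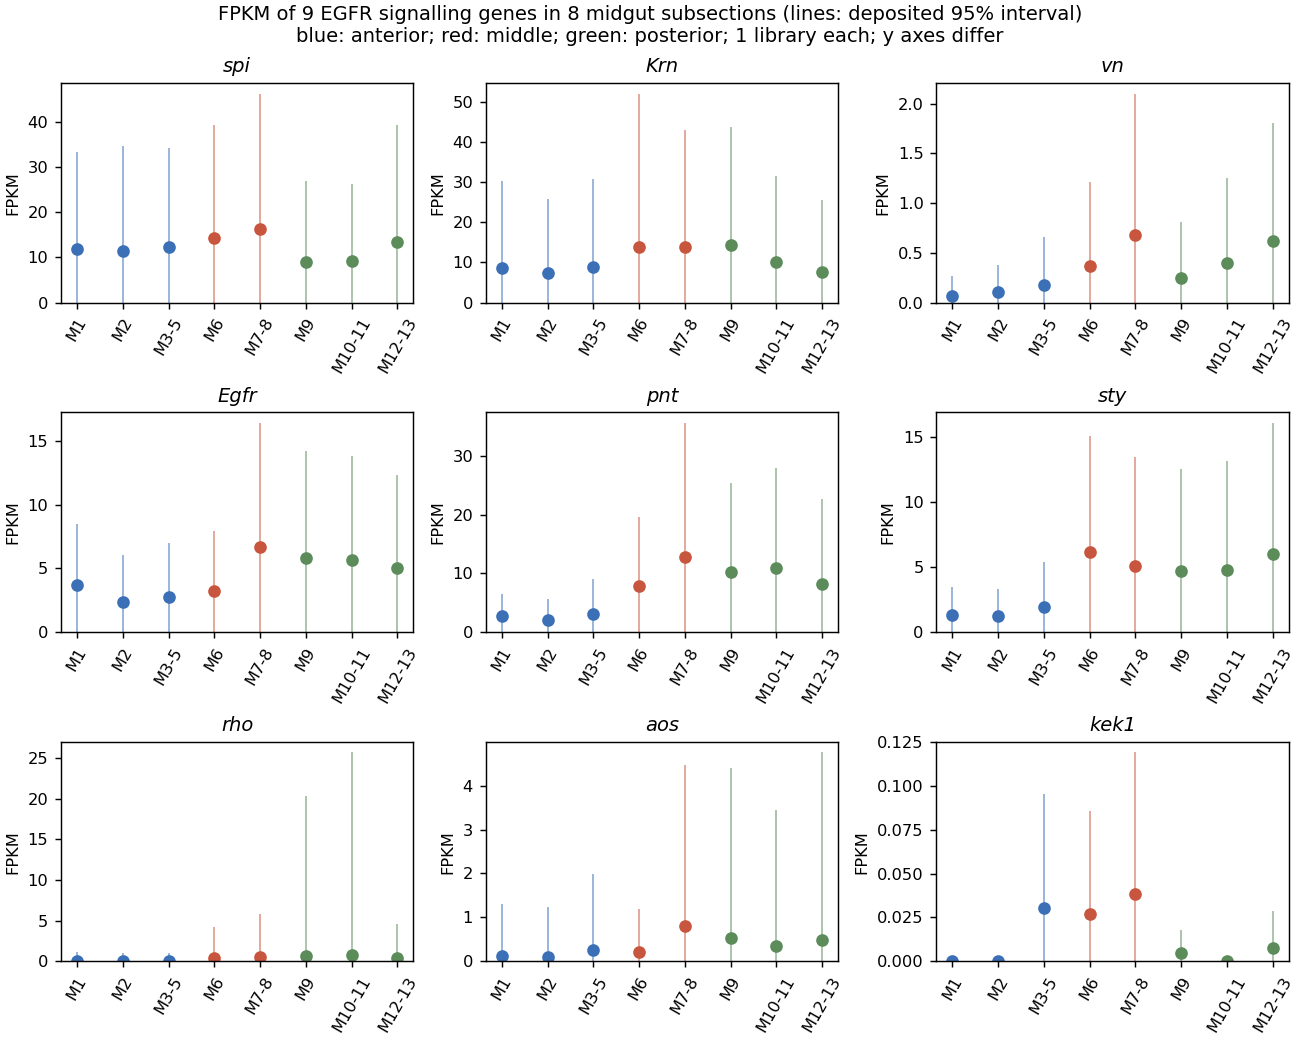
FPKM (vertical axis, a separate linear scale for each gene) of the 9 genes in the 8 subsections from anterior to posterior (horizontal axis), with 1 library per point and vertical lines for the deposited 95% interval. *spi* stays between 9.08 and 16.2 FPKM, *pnt* and *sty* are lowest in the 3 anterior libraries, and *vn*, *rho*, *aos* and *kek1* stay below 1 FPKM although some of their intervals reach far higher.

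The transcription factor *pnt* and the inhibitor *sty* differed most between regions among the 5 expressed genes, with low levels in the anterior midgut and higher ones from M6 backward. *pnt* (FBgn0003118; chromosome 3R, 19115953 to 19171889) had 2.74, 2.10 and 3.01 FPKM in the anterior libraries, 7.88 and 12.8 FPKM in the middle ones and 10.2, 11.0 and 8.21 FPKM in the posterior ones. No anterior library reached the lowest of the others, and all 5 of the others exceeded the upper bound of 5.67 FPKM in M2. The posterior mean was 3.74 times and the middle mean 3.95 times the anterior mean. *pnt* was the single member with a range past 4-fold on the log2(FPKM + 1) scale (2.15), as 41.5% of all genes that met the limit were.

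*sty* (FBgn0014388; chromosome 3L, 3401153 to 3424935) had 1.28, 1.24 and 1.95 FPKM in the anterior libraries, 6.15 and 5.09 FPKM in the middle ones and 4.68, 4.79 and 6.02 FPKM in the posterior ones. As for *pnt*, the anterior libraries were all below the rest, and 5 values exceeded the upper bound of 3.34 FPKM in M2, but *sty* was highest in M6 and M12–13. *sty* was higher by 1.27 and *pnt* by 1.15 in M6 than in M3–5, the only steps between neighboring subsections past 2-fold among the 9 genes. Of all genes that met the limit, 12.1% were past 2-fold in this direction at the same boundary, and the median step over all genes was −0.53. The ratio of *sty* to *pnt*, genes with transcripts of similar length (medians of 3772 and 3356 nt), was highest in M6 (0.780) and M12–13 (0.732) and lowest in M7–8 (0.398).

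At the same boundary, *Krn* was higher in M6 by 0.59, *spi* by 0.19 and *Egfr* by 0.16. The ratio of *pnt* to *Egfr* was between 0.740 and 1.08 in the anterior libraries, 2.44 in M6 and between 1.64 and 1.94 in the remaining libraries. That of *sty* to *Egfr* was between 0.345 and 0.704 in the anterior libraries, 1.91 in M6, 0.760 in M7–8 and between 0.805 and 1.20 in the posterior libraries. Against *spi*, *pnt* went from 0.182 in M2 to 1.20 in M10–11. Transcripts of these genes differ in length, and the part of length in the ratios was not tested. The expression of *escargot* (*esg*), the transcription factor that marks midgut progenitors, was 1.44, 1.60 and 2.02 FPKM in the anterior libraries, 9.01 and 9.57 FPKM in the middle ones, and between 3.60 and 4.79 FPKM in the posterior ones; its step between M3–5 and M6 was in the same direction. The other markers of the list that met the limit, a pair of Notch target genes, were lower in M6 than in M3–5, with 2.95 against 5.17 FPKM for *E(spl)m3-HLH* and 5.91 against 6.17 FPKM for *E(spl)mbeta-HLH*. *Delta* (*Dl*) and *Notch* (*N*) were below the limit, with at most 0.358 and 1.14 FPKM. A part of progenitors in the levels of *pnt* and *sty* was not tested. The list of 5 summed to between 9.08 and 14.9 FPKM in the anterior, 18.5 and 21.4 FPKM in the middle, and 10.6 and 15.8 FPKM in the posterior libraries.

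**Figure D2:**
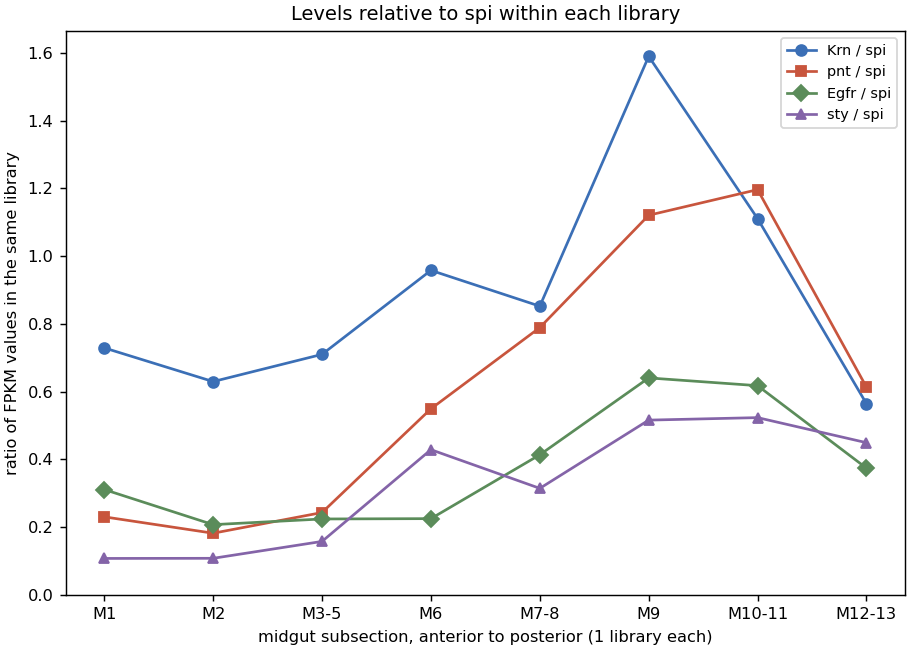
Ratio of the FPKM of *Krn*, *pnt*, *Egfr* and *sty* to that of *spi* in the same library (vertical axis, linear, no units) against the 8 subsections (horizontal axis), with 1 library per point and no error. *Krn* exceeds *spi* in M9 (1.59) and M10–11 (1.11) alone, *pnt* does so in the same libraries, and *Egfr* and *sty* stay below *spi* throughout. By the deposited intervals, the order of *Krn* and *spi* is not separable in any library.

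The protease gene *rho* and the inhibitors *aos* and *kek1* were at the limit of what these data resolve. *rho* (FBgn0004635; chromosome 3L, 1342493 to 1475249, an interval with 9 other genes) had 0.0848, 0.0593 and 0.0510 FPKM in the anterior libraries, 0.376 and 0.531 FPKM in the middle ones and 0.681, 0.758 and 0.387 FPKM in the posterior ones. The anterior libraries lay below all others, but the upper bounds were 20.3 FPKM in M9 and 25.7 FPKM in M10–11, far above the values, and the highest value was below the bound of 1.04 FPKM in M3–5. *aos* (FBgn0004569; chromosome 3L, 16412697 to 16536318, with 5 other genes) had between 0.0958 and 0.265 FPKM in the anterior libraries, 0.210 and 0.795 FPKM in the middle ones, and between 0.356 and 0.541 FPKM in the posterior libraries, also below the bound of 1.24 FPKM in M2, its lowest library. *kek1* (FBgn0015399; chromosome 2L, 12817000 to 12822787) was listed at 0 in M1, M2 and M10–11 and at 0.0384 FPKM or less elsewhere, and is not interpreted further.

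Across the set, the anterior midgut tended to hold the low values. Each of the 9 genes was highest in a middle or posterior library, as were 50.5% of the genes that met the limit, and 6 were highest in M7–8, 3 of them among the 5 that met the limit (background 14.6%). Of the 8 genes never listed at 0, 5 were lowest in M2, of which 4 met the limit (background 19.7%), and *spi* was lowest in M9. All 3 anterior values were below all 3 posterior values for 6 genes, *Egfr*, *vn*, *rho*, *aos*, *sty* and *pnt* (background 31.6%), of which 3 met the expression limit. For *vn*, *rho*, *sty* and *pnt*, the anterior values were below the middle ones too, and 2 of these genes met the limit (background 20.6%). The highest value exceeded the upper bound in the lowest library for *Egfr*, *vn*, *sty* and *pnt*, of which 3 met the limit, and for 65.1% of the background. The small number of genes and the size of these backgrounds mean that the counts describe the genes and do not set them apart.

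The mean of log2(FPKM + 1) over the posterior libraries minus that over the anterior libraries was 1.58 for *pnt*, 1.31 for *sty*, 0.73 for *Egfr* and 0.30 for *Krn*, and *spi* was 0.19 lower in the posterior (anterior minus posterior), a direction that turned after the rescaling described next and with the length trend removed. *pnt* and *sty* were past 2-fold toward the posterior, as were 19.9% of the genes that met the limit, and no member was past it toward the anterior (background 23.8%). The median difference over all genes was −0.18 with the deposited values and 0.89 after each library was rescaled to the same summed FPKM. Relative to that median, *pnt* was higher by 1.76 with the deposited values and by 1.63 after the rescaling, *sty* by 1.49 and 1.24, *Egfr* by 0.91 and 0.77, and *Krn* by 0.49 under both, while *spi* was level with it before the rescaling and 0.03 above it after. None of the 9 genes was past 2-fold in the middle against both ends (background 7.70% higher and 19.4% lower) or in M6 against the other 7 libraries (7.06% higher and 26.4% lower). In M6 minus the mean of the others, *sty* had 0.78, *Krn* 0.45, *pnt* 0.35, *spi* 0.27 and *Egfr* −0.34, against a median of −0.49 over all genes. Within the M6 library *spi* and *Krn* ranked higher than in any other, at percentiles 82.9 and 82.5 of all entries.

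Much of the difference between the posterior and the anterior midgut moved with transcript length. Across 5857 genes with a mean above 3 FPKM, the anterior minus posterior difference had a Spearman's rho of −0.70 with the median length of a gene's transcripts, given as a description since genes share the libraries. The genes of the pathway have long transcripts, with medians of 5911 nt for *Egfr*, 3772 nt for *sty* and 3356 nt for *pnt*, whereas those of *spi* and *Krn* are 1576 and 1354 nt; the median of the genes that met the limit was 1704 nt. Genes of the same length as *Egfr* had a posterior excess of 1.43, larger than its own 0.73, so with the trend removed *Egfr* was 0.71 higher in the anterior midgut. After removal of the trend, the posterior excess was 0.77 for *pnt*, 0.36 for *sty*, 0.87 for *Krn* and 0.18 for *spi*, and none of the 5 genes was past 2-fold (background 11.3%). The difference of *pnt* and *sty* thus kept its direction and was smaller, whereas the direction for *Egfr* turned with the length trend removed and that for *spi* turned both there and after the rescaling to the same summed FPKM (0.92 higher in the posterior). Of the genes below the limit, *vn* went from 0.34 higher in the posterior to 0.84 higher in the anterior with the trend removed. *aos* went from 0.33 higher in the posterior to 0.24 higher in the anterior. The trend was fitted on genes with a mean above 3 FPKM, and the scale of log2(FPKM + 1) understates the change of *vn* and *aos*. Their posterior mean FPKM was 3.61 and 2.80 times the anterior mean, so their turn is not interpreted. With the trend removed, 5 of the 9 genes instead of 7 were higher in the posterior. Of these 5, 4 met the limit, and *rho*, below it, was higher by 0.05. Of all genes that met the limit and had a length, 49.4% were higher in the posterior with the trend removed. No such share was computed beside the 7, and these counts are not read as results about the 9 genes.

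**Figure D3:**
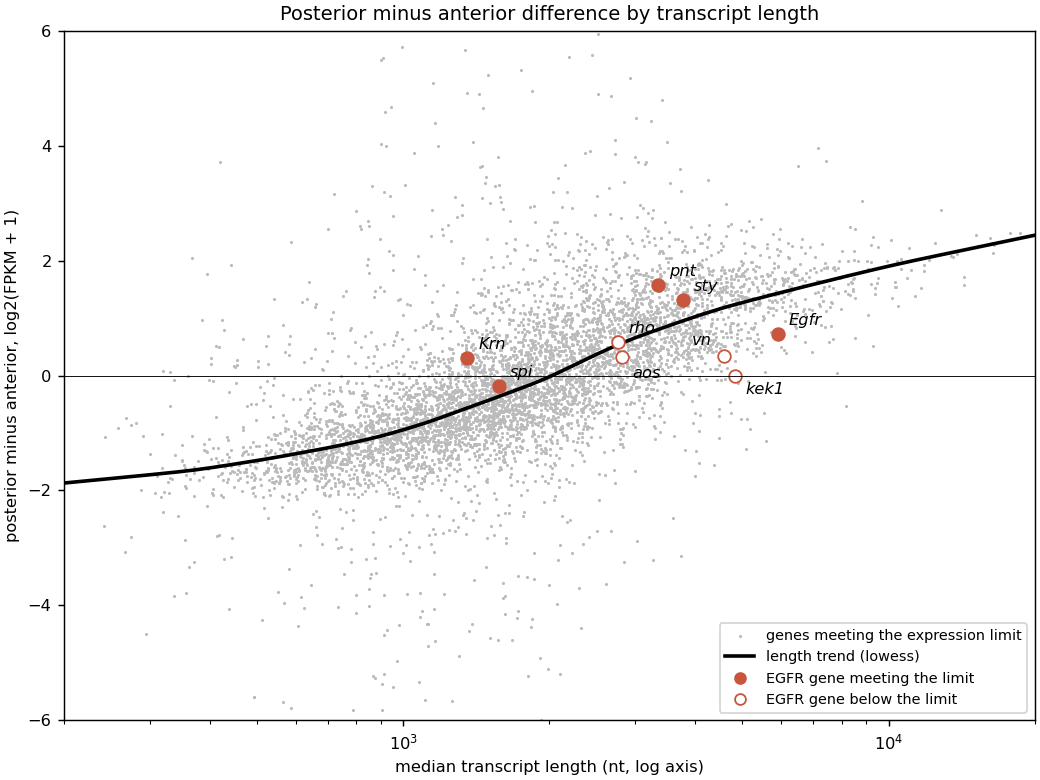
Posterior minus anterior difference in mean log2(FPKM + 1) (vertical axis) against the median transcript length in nt (horizontal log axis) for 6068 genes that met the expression limit (gray), of which 87 lie outside the axes, with the length trend (black line) and the 9 genes (red, open where below the limit). *pnt*, *sty*, *Krn* and *spi* lie above the line, and *Egfr* lies below it.

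The remaining pathway was described through 46 genes in 5 lists, and genes that pass the 2-fold limit are named. The nuclear genes were the most uniform list: all 5 expressed genes of 6 were past 2-fold toward the posterior midgut (background 19.9%), and *phyl* was listed at 0 throughout. The repressor *aop* had between 1.24 and 2.10 FPKM in the anterior libraries, 3.20 FPKM in M6 and between 7.11 and 8.28 FPKM from M7–8 backward. *capicua* (*cic*), a repressor relieved by MAP kinase, had at most 1.85 FPKM in the anterior, 2.18 FPKM in M6 and between 7.33 and 9.47 FPKM behind it. *groucho* (*gro*, 1.16), a corepressor, *tramtrack* (*ttk*, 1.52), a repressor degraded upon EGFR signaling in the eye, and *sina* (1.49), an E3 ligase that targets it there, also had higher posterior means. The median of these 5 genes was 1.52 against −0.18 over all genes that met the limit, and none of the 5 was past 2-fold with the length trend removed (median 0.54). The ratio of *pnt* to *aop*, activator to repressor, was 1.30, 1.69 and 2.31 in the anterior libraries, 2.46 and 1.60 in the middle ones and 1.43, 1.33 and 1.10 in the posterior ones.

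In the relay between receptor and nucleus, 4 of 11 genes were past 2-fold toward the posterior (background 19.9%) and none toward the anterior (background 23.8%), with a median of 0.62 against −0.18 over all genes. They were *downstream of receptor kinase* (*drk*), the Grb2 adaptor, which reached 42.0 FPKM in M12–13 from 5.27 FPKM in M2, the phosphatase *corkscrew* (*csw*), the exchange factor *Son of sevenless* (*Sos*) and the scaffold *connector enhancer of ksr* (*cnk*). Among the 9 relay genes that met the limit and had a length, *drk* alone was past 2-fold toward the posterior with the length trend removed (1.29). The median of these 9 genes was then 0.12. *Ras85D*, the highest of the list by mean, had between 33.8 and 57.5 FPKM in all libraries. Other genes stood out within a single place and were chosen after their values were seen. *rolled* (*rl*), the ERK-type MAP kinase, had 110.5 FPKM in M6 and between 23.6 and 40.8 FPKM elsewhere, with an upper bound of 408 FPKM in M6. *daughter of sevenless* (*dos*), a docking protein, had 17.2 FPKM in M3–5 and 11.8 FPKM in M6 against at most 5.26 FPKM in the other libraries; its posterior minus anterior difference was −0.82, and −1.84 with the length trend removed.

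Of 14 further inhibitors, 3 were past 2-fold toward the posterior: *RasGAP1* (listed as *Gap1* in older work), *kek5* and *lambik* (*lbk*). Of these, *kek5* and *lbk* were among the 5 that met the limit; 3 of 14 is close to the background of 19.9%. *kek5* met the expression limit through its highest libraries alone (5.53 FPKM in M7–8 and 5.33 FPKM in M9) and had between 0.373 and 0.835 FPKM in the anterior ones. With *kek1* near 0 and *kek3* listed at 0, *kek5* was the most abundant of the 6 kekkon genes, at a mean of 2.86 FPKM. The highest of the list by mean was *Spred*, an inhibitor related to *sty*, which had the opposite shape at M6, with 5.54 FPKM there and between 8.26 and 11.5 FPKM elsewhere. The median over the 14 genes, 9 of them below the limit, was 0.70, against −0.18 over all genes that met it. With the length trend removed, none of the 5 that met the limit was past 2-fold, and their median was −0.27, toward the anterior.

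Among 8 genes of ligand production, *Star* (*S*), which escorts Spi to the protease, was past 2-fold toward the posterior, with 0.546 FPKM in M1 and 3.22 FPKM in M10–11; it was below the expression limit, and its difference of 1.24 was 0.30 with the length trend removed. The backgrounds were 19.9% toward the posterior and 23.8% toward the anterior. *cornichon* (*cni*), a cargo receptor, was past 2-fold toward the anterior, with 272 FPKM in M2 and 66.6 FPKM in M6; its transcripts are short (878 nt), and the difference with the trend removed was −0.20. *ru*, another rhomboid gene, was listed at 0 in all libraries. *rho-4*, a rhomboid protease gene named here after its values were seen, was by far the most abundant of the rhomboid genes examined, which need not be the whole family. It had 34.3, 29.7 and 41.7 FPKM in the anterior libraries, 51.5 and 71.7 FPKM in the middle ones and 69.8, 63.6 and 58.3 FPKM in the posterior ones. It exceeded *rho* by a factor of at least 83.9 in every library. *gurken* (*grk*), the germline ligand, had at most 3.32 FPKM, in M6, where its upper bound was 68.5 FPKM. Of the 7 other receptor tyrosine kinases, *InR* was past 2-fold toward the posterior with values below the expression limit, and *Pvr* had the highest mean (9.87 FPKM), above that of *Egfr* (4.41 FPKM).

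**Figure D4:**
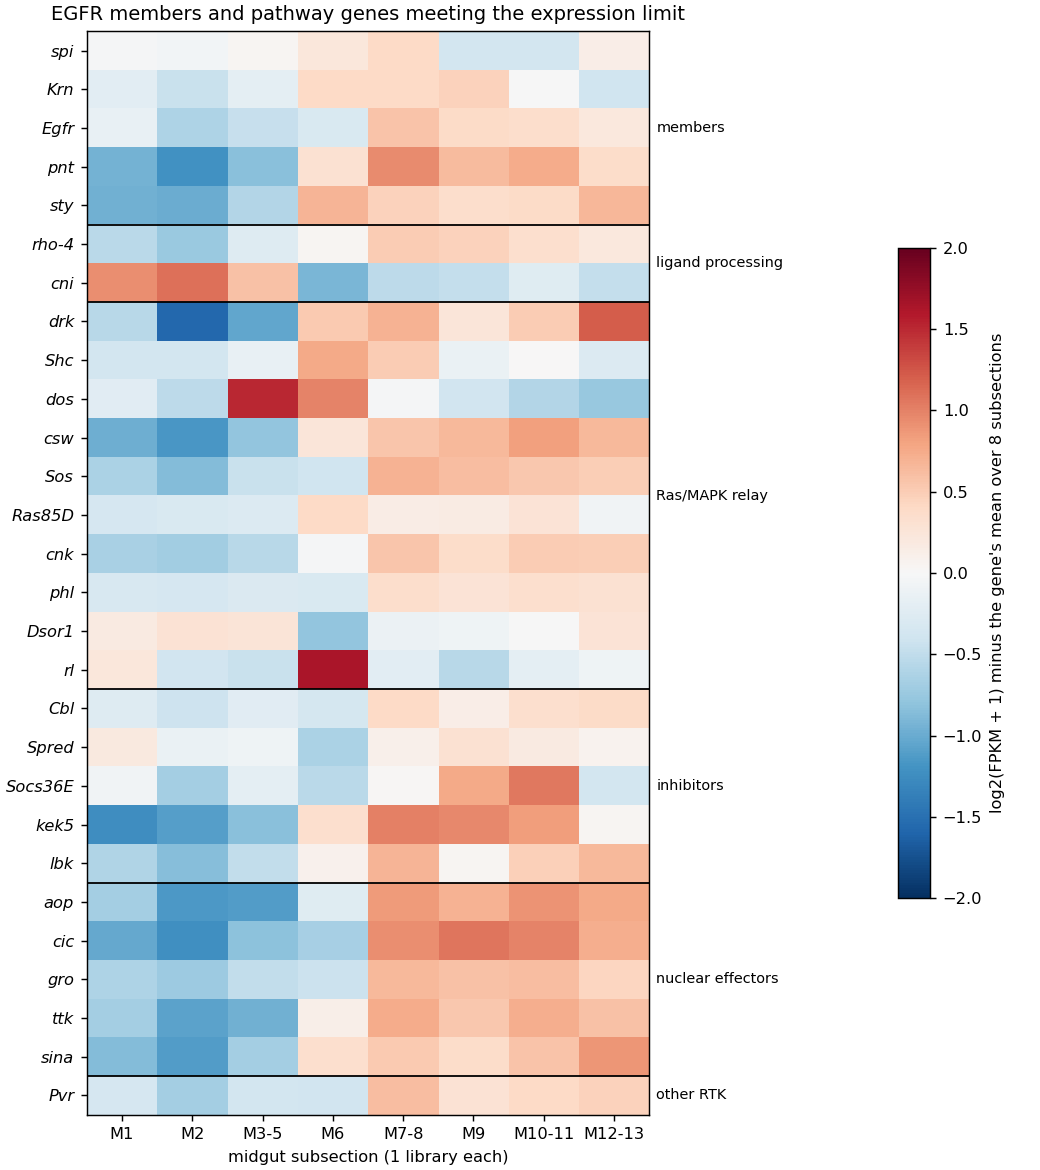
Deviation of log2(FPKM + 1) from the gene's own mean over the 8 subsections (color scale from −2 to 2) for the 5 members and 23 listed pathway genes that met the expression limit (rows), by subsection (columns, 1 library each). The nuclear genes, *pnt*, *sty*, *csw* and *kek5* are blue in the 3 anterior columns, *rl* stands out in M6 and *dos* in M3–5, and *cni* runs the other way.

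The genes most like each member in shape were sought by Pearson's r of log2(FPKM + 1) over the 8 libraries, among 6314 other genes that met the limit; the points share libraries, and r is a description. *pnt* was closest to *misshapen* (*msn*, r = 0.998) and *slipper* (*slpr*, r = 0.996), a pair of kinases of the JNK pathway, with 418 genes at r of 0.95 or more. *sty* was closest to *liquid facets* (*lqf*), an epsin of endocytosis, and to *EDTP*, both at 0.992, with 150 such genes. *Egfr* was closest to *CG10077* (0.989) and *fusilli* (*fus*, 0.988), with 103. *Krn* had 4 such genes, led by *Mob4* (0.972) and *CG15818* (0.971), and *spi* had none, its closest being the ion cotransporter gene *kcc* (0.942) and the metallothionein gene *MtnA* (0.938). The genes named for *pnt*, *sty* and *Egfr* have long transcripts, with medians between 3140.5 and 5238.5 nt. Those for *Krn* have 1420 and 1321 nt, and those for *spi* 3612 and 514.5 nt. The length trend was left in, and the part of length in these likenesses was not tested. Between members, r was 0.92 for *pnt* and *sty*, 0.88 for *pnt* and *Egfr* and 0.67 for *sty* and *Egfr*. *Krn* had 0.70 with *pnt*, 0.60 with *sty* and 0.53 with *Egfr*, whereas *spi* had at most 0.16 with any of the other 4. These values too were computed with the length trend left in, and *Egfr* and *pnt* differed in direction once it was removed.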

How the data were processed

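Reads of low quality were discarded by the authors with PRINSEQ; they mapped the remaining single-end reads from an unstranded library with Bowtie and TopHat2 2.0.6 and quantified them with Cuffdiff 2.0.2, as the submitters' processing notes and the study's methods state. The deposited FPKM values carry upper-quartile normalization, multiread correction and fragment bias correction, with dispersion estimated blind because of the lack of replicates. The interval bounds deposited beside each FPKM, of which the lower is listed here as a separate kind of value, were used as given. Counts are not part of the table, and the depth behind a value is unknown. In an unstranded library, reads of genes that overlap on opposite strands cannot be told apart, and bundles, whose coordinates are given on release 5 of the genome, can hold several genes.

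The 1 unnamed entry was left out. Genes were found by symbol, or by identifier through RefSeq synonyms where a symbol had changed. Differences were computed on log2(FPKM + 1), with 2-fold (1 on this scale) as the limit, and 4-fold (2) for the range. Subsections of a division are different places and not replicates, so no test was made. Transcript lengths were medians over transcripts of a later annotation (BDGP6), joined by identifier (13635 entries), and the trend with length was fitted by lowess (share of genes per window 0.3). The genes and lists were chosen with earlier results of these data known. Named genes were the 9 members, listed genes past 2-fold toward either end or in the middle, the highest of each list by mean, and the 2 genes most like each member with a mean above 3 FPKM. Alternatives were a pseudocount of 0.1, a rescaling to the same summed FPKM or by the median ratio, no expression limit, entries with a status other than OK (143) left out, the length trend removed, and each subsection left out. Ratios and percentiles within a library were chosen once the values were known. The calculations were tested on simulated data. Python 3.11.15, numpy 2.4.6, pandas 2.3.3, scipy 1.17.1, statsmodels 0.14.6 and matplotlib were used.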

Additional observations from a re-analysis of the deposited data

How the results depend on the processing

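No paired analysis was possible because each subsection has 1 library. The count of 6 genes with all anterior values below all posterior ones was 8 after rescaling to the same summed FPKM and 6 under the other 4 alternatives that gave it. Other counts moved, as fixed limits on 9 genes do. The counts in this paragraph stand without the share over all genes under the same setting. They are therefore not read as results about the 9 genes. The median posterior minus anterior difference over all genes itself moved from −0.18 to 0.89 with the same summed FPKM. With a pseudocount of 0.1, which brings in *vn*, *rho* and *aos*, 5 genes instead of 2 were past 2-fold between posterior and anterior, 5 instead of 1 past 4-fold in range, 6 instead of 2 steps past 2-fold, and 1 gene instead of 0 in M6. With the same summed FPKM, these counts were 4, 4, 5 and 1, and 3 genes instead of 0 were past 2-fold in the middle. With the length trend removed, they were 1 between posterior and anterior (*kek1*, by subtraction of the trend from values near 0), 1 in the middle (*Krn*) and 2 in M6 (*Krn* and *sty*). Division by the median ratio gave 1 in M6. Leaving out each subsection gave between 0 and 1 genes past 2-fold in the middle, the 1 being *pnt* without M6 (1.15).
The levels of *vn*, *rho*, *aos* and *kek1*, all below 1 FPKM, limit what can be said of them.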
